A study of Homo sapiens with 12 samples.

Results

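The genes described here are the cytoplasmic actins ACTB and ACTG1, the transcription factor SRF and 7 genes of the actin cytoskeleton that SRF is known to drive, VCL, FLNA, TPM1, TPM4, MYL9, TAGLN and ZYX. They were chosen by symbol, and all 10 were found in each of the 3 expression tables, which list 16489 symbols for HCC70, 18215 for MDA-MB468 treated with XY018 and atorvastatin, and 55744 for MDA-MB468 treated with GSK805. Of these symbols, 15852 are listed in all 3 tables. The choice was made with the changes described below already known, so all values are given as a description and none carries a test.

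The 12 libraries come from 2 established human triple-negative breast cancer (TNBC) cell lines after 24 h of treatment. Each condition of an experiment has 1 library, and vehicle-treated MDA-MB468 has 2, from separate experiments. For HCC70 the conditions were vehicle, XY018 (a RORγ antagonist) at 1.25 μM and at 2.5 μM, atorvastatin at 1.25 μM (ATV, a statin, which inhibits the rate-limiting enzyme of cholesterol synthesis), and the combination of both compounds with 1.25 μM of each. For MDA-MB468 these 5 conditions were repeated, and another experiment set GSK805, also a RORγ antagonist, at 2.5 μM against a vehicle of its own. Each cell line is a single tumour-derived line, no genotype was altered, and no tumour tissue entered these tables. The levels are FPKM, fragment counts scaled by transcript length and by the size of the library, so that levels of different genes are compared per length. The tables were normalized separately, and each treated library was set against the vehicle of its own table, which makes the treatments of a table share 1 vehicle library. A change is the log2 ratio of the FPKM of a treated library to that of its vehicle, after 0.1 was added to each, computed where either library reached 1 FPKM, and a gene was called lower or higher at 1.5-fold or more. Each condition of an experiment has 1 library, each line was described on its own, and no p-value is given. The 95% counting intervals quoted cover the sampling of fragments only, and rest on depths estimated at 9020000 to 9940000 fragments for HCC70, 17760000 to 19320000 for MDA-MB468 with XY018 and ATV, and 8440000 and 8500000 for MDA-MB468 with GSK805. They leave out the variation between cultures.

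SRF binds a DNA element called the CArG box in the promoters of its target genes. Its cofactors of the MRTF family (MKL1 and MKL2) are held by monomeric actin and enter the nucleus when actin is driven into filaments, so that actin and its partners are made in step with filament assembly. A second family of cofactors, the TCFs (ELK1, ELK3 and ELK4), directs SRF to early growth response genes downstream of ERK. In epithelial and carcinoma cells the targets of the first branch build stress fibres and focal adhesions.

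In GRCh37, the build of the tables, ACTB lies at chr7:5566040-5603533 and ACTG1 at chr17:79476439-79490873, both on the minus strand, and SRF at chr6:43139007-43149244 on the plus strand. The adhesion and crosslinking genes are VCL at chr10:75754951-75881121 (plus), ZYX at chr7:143078388-143088204 (plus) and FLNA at chrX:153576892-153603002 (minus). The tropomyosins are TPM1 at chr15:63334819-63364114 and TPM4 at chr19:16177831-16213812, and the smooth muscle type genes are MYL9 at chr20:35169900-35179850 and TAGLN at chr11:117070086-117078180, all on the plus strand. RefSeq promoter windows of GRCh38.p14, from 250 bases before to 50 after a start site, were matched for 7 of the 10 genes, ACTG1, SRF, VCL, FLNA, TPM1, TPM4 and ZYX. These genes have 10 windows, since the table gives 2 for SRF and 3 for TPM4. A CArG box, searched on both strands, stood in at least one window of 4 genes, the single windows of ACTG1 and FLNA, 1 of 2 for SRF and 1 of 3 for TPM4. These are shown because the box is the element by which SRF is known to read its targets. Among all windows of this length 1.29% held a CArG box (454 of 35116), and 1.6% of the genes did (438 of 27305). The bases from -200 to -1 before the start site follow, written 5′ to 3′ on the strand of the gene, with CArG boxes in capitals, and their positions in GRCh38.p14 are chr17:81512800-81512999 (minus) for ACTG1, chr6:43171069-43171268 (plus) for SRF, chrX:154374635-154374834 (minus) for FLNA and chr19:16067338-16067537 (plus) for TPM4.
ACTG1: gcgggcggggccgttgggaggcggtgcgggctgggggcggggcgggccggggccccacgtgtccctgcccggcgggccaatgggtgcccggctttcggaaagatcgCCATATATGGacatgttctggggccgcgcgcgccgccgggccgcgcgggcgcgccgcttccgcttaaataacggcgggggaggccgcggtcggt
SRF: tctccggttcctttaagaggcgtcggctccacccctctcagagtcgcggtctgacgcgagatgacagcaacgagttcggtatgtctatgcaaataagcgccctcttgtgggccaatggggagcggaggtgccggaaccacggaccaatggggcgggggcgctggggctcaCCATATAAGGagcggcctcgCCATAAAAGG
FLNA: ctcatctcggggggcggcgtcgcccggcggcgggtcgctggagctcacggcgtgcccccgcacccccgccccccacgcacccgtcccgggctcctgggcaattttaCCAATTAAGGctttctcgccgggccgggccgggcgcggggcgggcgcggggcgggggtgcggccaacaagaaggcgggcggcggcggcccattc
TPM4: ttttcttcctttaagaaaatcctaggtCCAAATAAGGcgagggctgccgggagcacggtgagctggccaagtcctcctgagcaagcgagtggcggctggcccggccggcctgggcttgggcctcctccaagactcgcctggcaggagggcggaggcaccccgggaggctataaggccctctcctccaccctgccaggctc
The box of ACTG1 and that of FLNA began at the same distance from the start site, -94, and the box of TPM4 lay farther upstream, from -173 to -164. The window of SRF that is shown held 2 boxes that do not overlap, from -30 to -21 and from -10 to -1, and SRF is known to act on its own gene. No box was found in the windows of VCL, TPM1 and ZYX, in the other window of SRF or in the other 2 of TPM4, which says only that these letters are not in these windows. No binding data were analysed here.

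The actins changed most in MDA-MB468. In the XY018 and ATV experiment ACTB, the main actin of non-muscle cells, stood at 3718 FPKM with vehicle, 1175 with XY018 at 1.25 μM, 751 at 2.5 μM, 2984 with ATV and 781 with both compounds. In the GSK805 experiment it stood at 5485 FPKM with vehicle and 1410 with GSK805. In HCC70 its levels were 3399 FPKM with vehicle, 2977 and 2896 with XY018 at 1.25 and 2.5 μM, 2980 with ATV and 1984 with both compounds. All 4 libraries of MDA-MB468 cells that had received an antagonist were below the vehicle of their table by more than 3-fold, and in HCC70 the one library that stood clearly below the others was that of XY018 with ATV. The fold changes of ACTB in MDA-MB468 were 3.16-fold lower with XY018 at 1.25 μM, 4.95-fold lower at 2.5 μM (log2 ratio -2.31, counting interval -2.33 to -2.29), 4.76-fold lower with both compounds and 3.89-fold lower with GSK805 (-1.96, interval -1.99 to -1.93). With ATV alone ACTB was 1.25-fold lower. In HCC70 the combination left ACTB 1.71-fold lower (-0.78, interval -0.80 to -0.76), against 1.14-fold with XY018 at 1.25 μM and with ATV and 1.17-fold with XY018 at 2.5 μM.

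Among all symbols of its table, with 1 entry kept for each, ACTB took rank 2 by FPKM in the vehicle library of the MDA-MB468 XY018 and ATV experiment. It took rank 67 after XY018 at 2.5 μM. In HCC70 it went from rank 10 with vehicle to rank 17 with both compounds. The actins together made up 1.26% of the summed FPKM of the MDA-MB468 vehicle library, 0.399% and 0.254% after XY018 at 1.25 and 2.5 μM, 0.263% after both compounds and 1.00% after ATV. In HCC70 the share was 0.897% with vehicle and 0.528% with both compounds. In the GSK805 table it was 0.366% with vehicle and 0.105% with GSK805, where mitochondrial genes took 51.5% and 56.0% of the sum. The share of the 10 entries of mitochondrial rRNA-like (MTRNR2L) genes moved with these values, from 1.91% in the MDA-MB468 vehicle library to 3.83% and 4.28% after XY018 at 1.25 and 2.5 μM and 3.43% after both compounds, and from 6.57% to 7.91% between vehicle and both compounds in HCC70, and its part in the result was not tested. In bulk RNA, fewer cells expressing a gene and less of its RNA per cell cannot be told apart, and an FPKM is a share of a library and not an amount per cell.

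ACTG1, the second cytoplasmic actin, followed ACTB at lower levels. It stood at 1713 FPKM with vehicle in the MDA-MB468 XY018 and ATV experiment, 587 and 383 with XY018 at 1.25 and 2.5 μM, 1326 with ATV and 392 with both compounds. With GSK805 it went from 3493 to 1325 FPKM. In HCC70 it measured 659 FPKM with vehicle, 581 and 594 with XY018 at 1.25 and 2.5 μM, 642 with ATV and 399 with both compounds. The order of the libraries was that of ACTB in MDA-MB468, and in HCC70 the library of both compounds was again the lowest. ACTG1 was 2.92-fold lower with XY018 at 1.25 μM, 4.47-fold lower at 2.5 μM, 4.37-fold lower with both compounds and 2.64-fold lower with GSK805 in MDA-MB468, and 1.65-fold lower with both compounds in HCC70. The coding sequences of the actins are 1128 bases each and 91.2% identical, with a longest identical run of 59 bases, so that reads can be shared between them and the division of the fragments between ACTB and ACTG1 is uncertain. Their summed FPKM depends on that division only through the different lengths of the transcripts. It was 5431 FPKM with vehicle and 1134 with XY018 at 2.5 μM in MDA-MB468, 8979 and 2735 FPKM in the GSK805 table, and 4058 with vehicle and 2382 with both compounds in HCC70.

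**Figure D1:**
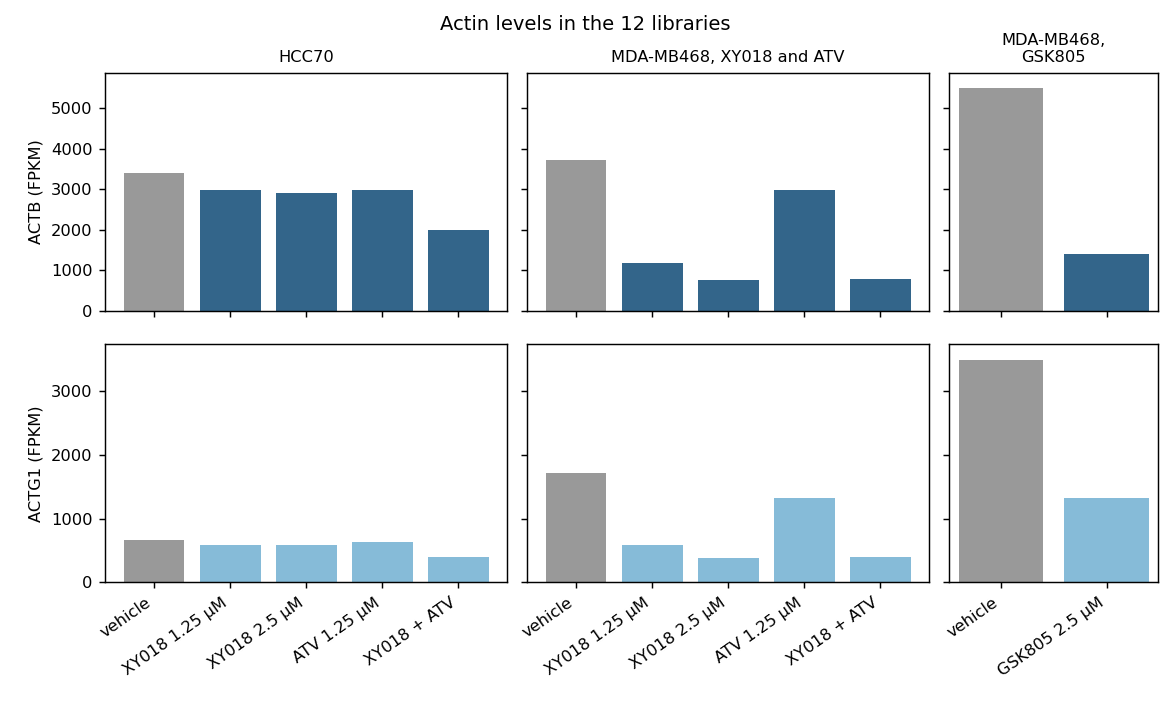
FPKM of ACTB (upper row) and ACTG1 (lower row) in the 12 libraries, with 1 bar per library, grey for vehicle and blue for treated. The axes start at 0 and the 3 columns are separately normalized tables. The 4 MDA-MB468 libraries that had received XY018 or GSK805 fall well below their vehicle for both genes, and among the HCC70 libraries that of XY018 with ATV is the lowest.

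SRF itself was a gene of moderate level that changed less than the actins. It measured 20.7 FPKM with vehicle in the MDA-MB468 XY018 and ATV experiment, 15.6 and 15.7 with XY018 at 1.25 and 2.5 μM, 21.1 with ATV and 14.9 with both compounds, and went from 19.4 to 13.5 FPKM with GSK805. In HCC70 its levels lay between 11.6 and 14.1 FPKM. The 4 antagonist libraries of MDA-MB468 were the low ones, by 1.32 to 1.44-fold, which is short of the 1.5-fold call. The log2 ratios were -0.41 and -0.40 at the XY018 doses, -0.47 with both compounds and -0.52 (counting interval -0.70 to -0.35) with GSK805. In HCC70 the counting interval of every SRF ratio included 0.

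Of the adhesion and crosslinking genes, VCL (vinculin, which ties actin filaments to adhesion sites) and FLNA (filamin A, which crosslinks filaments) were lower with the antagonists in MDA-MB468, whereas ZYX (zyxin, which sits at adhesions and along stress fibres) was not. FLNA measured 664 FPKM with vehicle in the MDA-MB468 XY018 and ATV experiment, 393 and 320 with XY018 at 1.25 and 2.5 μM, 606 with ATV and 325 with both compounds. In HCC70 its levels were 178 FPKM with vehicle, 172 and 171 with XY018 at 1.25 and 2.5 μM, 174 with ATV and 131 with both compounds. The XY018 libraries were thus the low ones in MDA-MB468, by 1.69-fold at 1.25 μM and 2.08-fold at 2.5 μM, and the library of both compounds in HCC70, by 1.35-fold. In the GSK805 table FLNA is listed at 0 in both libraries and gives no ratio. Among the 6166 genes of that table at 10 FPKM or above in the vehicle library of the XY018 and ATV experiment, FLNA alone is listed at 0 in both GSK805 libraries, and an exact 0 there can be a failed estimate.

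VCL measured 45.3 FPKM with vehicle in the MDA-MB468 XY018 and ATV experiment, 29.6 and 25.1 with XY018 at 1.25 and 2.5 μM, 41.3 with ATV and 28.0 with both compounds, and went from 74.6 to 38.9 FPKM with GSK805. It was 1.53, 1.80, 1.61 and 1.92-fold lower with XY018 at 1.25 and 2.5 μM, both compounds and GSK805. In HCC70 VCL stayed between 36.6 and 43.1 FPKM, and no library was past 1.5-fold.

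ZYX went another way. In HCC70 it measured 152 FPKM with vehicle, 168 and 183 with XY018 at 1.25 and 2.5 μM, 185 with ATV and 228 with both compounds, so that the vehicle library was the lowest and the library of both compounds the highest. The last is 1.498-fold above vehicle (log2 ratio 0.58, counting interval 0.52 to 0.65) and lies just below the call. In MDA-MB468 ZYX lay between 59.7 and 82.1 FPKM in the XY018 and ATV experiment and at 67.5 and 70.5 with vehicle and GSK805, with no ratio past 1.5-fold.

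The tropomyosins, which wrap along actin filaments and set which proteins may bind them, differed between TPM1 and TPM4. TPM1 measured 226 FPKM with vehicle in the MDA-MB468 XY018 and ATV experiment, 128 and 92.3 with XY018 at 1.25 and 2.5 μM, 201 with ATV and 95.3 with both compounds, and went from 236 to 108 FPKM with GSK805. In HCC70 it measured 58.0 FPKM with vehicle, 57.4 and 51.3 with XY018 at 1.25 and 2.5 μM, 49.2 with ATV and 36.9 with both compounds. Its low libraries were the same as those of the actins. TPM1 was 1.76 and 2.45-fold lower with XY018 at 1.25 and 2.5 μM, 2.37-fold lower with both compounds and 2.18-fold lower with GSK805 in MDA-MB468, and 1.57-fold lower with both compounds in HCC70 (log2 ratio -0.65, counting interval -0.86 to -0.45). TPM4 was at most 1.35-fold lower in MDA-MB468, from 239 FPKM with vehicle to 178 with XY018 at 2.5 μM, and lay between 136 and 163 FPKM in HCC70.

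MYL9, a regulatory light chain of myosin II, and TAGLN (transgelin), an actin-binding protein, are best known from smooth muscle and were weakly expressed here. MYL9 measured 4.05 FPKM with vehicle in the MDA-MB468 XY018 and ATV experiment, 1.28 and 1.19 with XY018 at 1.25 and 2.5 μM, 3.75 with ATV and 1.17 with both compounds, and went from 3.33 to 0.370 FPKM with GSK805. The antagonist libraries were again the low ones, by 3.01 to 3.27-fold in the XY018 and ATV experiment. The value with GSK805 rests on an estimated 3 fragments and its counting interval runs from -5.83 to -1.32 on the log2 scale. In HCC70 MYL9 lay between 0.170 and 1.12 FPKM, an estimated 2 to 11 fragments, and its calls as higher, with XY018 at 2.5 μM (log2 ratio 0.89, interval -0.65 to 2.90) and with both compounds, have intervals that include 0. TAGLN lay between 2.68 and 3.91 FPKM in HCC70 with no call. In the MDA-MB468 XY018 and ATV experiment it stood at 1.96 FPKM with vehicle, 2.82 and 3.34 with XY018 at 1.25 and 2.5 μM, 2.24 with ATV and 2.99 with both compounds. It was called higher with XY018 at 2.5 μM (log2 ratio 0.74, counting interval 0.17 to 1.39) and with both compounds (0.58, interval 0.0012 to 1.23), the last exactly at 1.5-fold. It was not called at 1.25 μM (0.50, interval -0.09 to 1.16) or with GSK805, where it stood at 6.84 FPKM with vehicle and 4.59 with the antagonist (-0.56, interval -1.27 to 0.10). Set against the other MDA-MB468 vehicle, across separately normalized tables, the ratio of TAGLN with GSK805 was above 0.

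**Figure D2:**
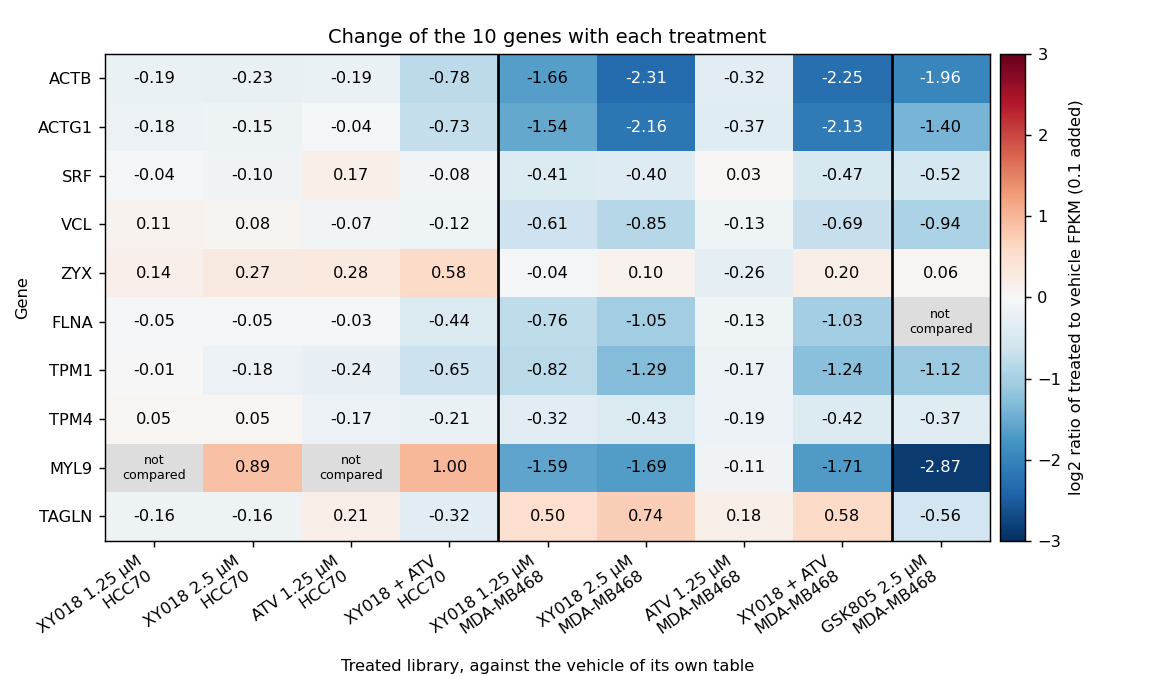
Log2 ratio of treated to vehicle FPKM (0.1 added) for the 10 genes (rows) in the 9 treated libraries (columns), with lines between the separately normalized tables and grey cells where a gene was under 1 FPKM in both libraries or listed at 0. ACTB, ACTG1, TPM1, FLNA, VCL and MYL9 are blue with the antagonists in MDA-MB468 (FLNA with XY018 only, as it has no ratio for GSK805), down to -2.31 for ACTB with XY018 at 2.5 μM and -2.87 for MYL9 with GSK805, while the ATV columns are pale.

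Counted over the genes, XY018 at 1.25 μM in MDA-MB468 left 6 of 10 lower and 0 higher (all genes compared, 8.38% lower and 9.73% higher), and XY018 at 2.5 μM left 6 lower and 1 higher (all genes, 14.5% lower and 14.1% higher). With XY018 and ATV together 6 were lower and 1 higher (all genes, 12.2% and 13.1%), and with ATV alone none of 10 passed 1.5-fold (all genes, 0.803% lower and 1.37% higher). With GSK805 5 of 9 were lower and 0 higher (all genes, 16.6% and 17.6%, or 12.5% and 13.4% over the symbols listed in all 3 tables). In HCC70 none of 9 passed 1.5-fold with XY018 at 1.25 μM (all genes, 2.64% lower and 1.93% higher) or with ATV (1.32% and 2.22%). With XY018 at 2.5 μM 0 of 10 were lower and 1, MYL9, was higher (all genes, 3.26% and 2.62%), and with both compounds 3 of 10, ACTB, ACTG1 and TPM1, were lower and MYL9 was higher (all genes, 2.93% and 4.38%). The choice of genes was made with these ratios already known, so the counts describe them. The shares over all genes are given for scale and not as a test. The median log2 ratio of the genes was -0.68, -0.95, -0.86 and -0.94 with XY018 at 1.25 and 2.5 μM, both compounds and GSK805 in MDA-MB468, -0.15 with ATV there, and -0.04, -0.08, -0.04 and -0.26 with XY018 at 1.25 and 2.5 μM, ATV and both compounds in HCC70. The median of all genes compared lay between -0.02 and 0.01 in all 9 comparisons.

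The step from 1.25 to 2.5 μM XY018 was taken within a table. In MDA-MB468 the log2 ratio of the higher to the lower dose was -0.64 for ACTB (counting interval -0.67 to -0.62), -0.62 for ACTG1, -0.47 for TPM1, -0.30 for FLNA, -0.24 for VCL and -0.10 for TPM4. For SRF it was 0.01 (interval -0.11 to 0.13). ZYX was above 0 at this step, with 0.14 in MDA-MB468 (interval 0.07 to 0.21) and 0.12 in HCC70 (0.06 to 0.19), and the intervals of TAGLN (0.24, -0.31 to 0.80) and MYL9 (-0.10, -1.02 to 0.80) in MDA-MB468 included 0. In HCC70 the same step gave -0.04 for ACTB (interval -0.06 to -0.02) and 0.03 for ACTG1 (-0.02 to 0.08), far smaller than in MDA-MB468.

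**Figure D3:**
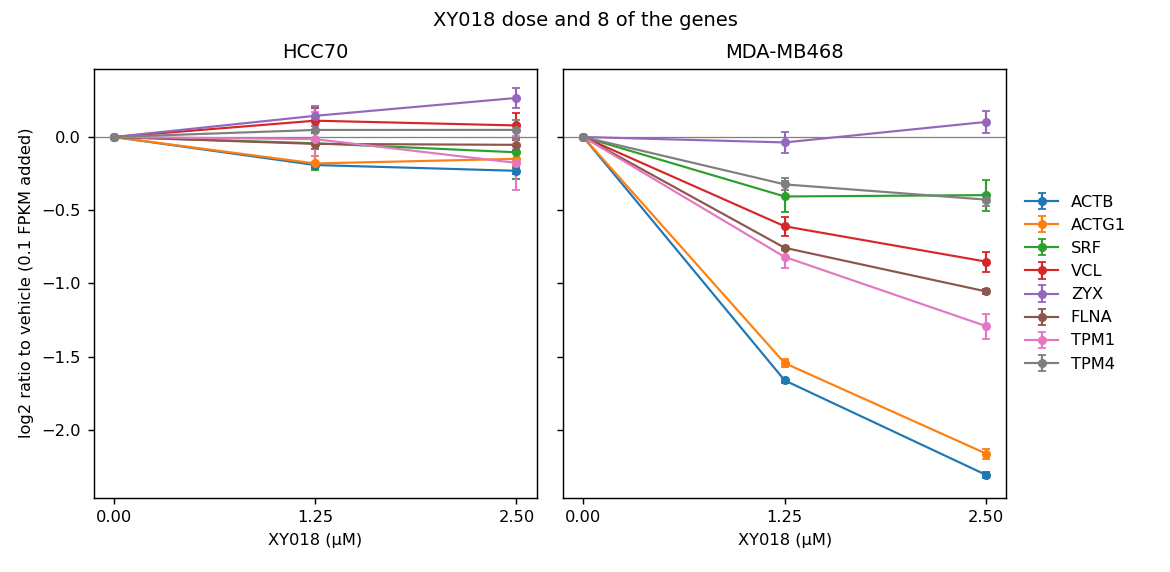
Log2 ratio to vehicle (0.1 FPKM added) against the XY018 dose in μM for 8 of the genes in HCC70 (left) and MDA-MB468 (right), with 95% counting intervals as bars. MYL9 and TAGLN are left out because their intervals are wide. In MDA-MB468 ACTB and ACTG1 run furthest down, to -2.31 and -2.16, followed by TPM1, FLNA and VCL, and in HCC70 every line stays between -0.25 and 0.30.

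ATV was added to XY018 at 1.25 μM in both lines. Relative to XY018 alone at that dose, the combination gave a log2 ratio for ACTB of -0.59 in both HCC70 and MDA-MB468, with a counting interval of -0.61 to -0.56 in each. The ratios in HCC70 and MDA-MB468 were -0.54 and -0.58 for ACTG1, -0.64 and -0.43 for TPM1, and -0.39 and -0.27 for FLNA, while those of ZYX were 0.44 and 0.23. In MDA-MB468 the actin levels with both compounds were close to those with XY018 alone at 2.5 μM. The log2 ratio between them was 0.06 for ACTB (interval 0.03 to 0.08) and 0.04 for ACTG1 (-0.01 to 0.08). Over the 10 genes 4 of these intervals lay above 0 and 0 below, the largest ratio of the 4 being that of VCL (0.16, 0.08 to 0.24). In HCC70 the combination was below XY018 at 2.5 μM for ACTB, with a log2 ratio of -0.55 (interval -0.57 to -0.52).

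The antagonists were given to MDA-MB468 at the same dose and time, 2.5 μM for 24 h, but in separate experiments with separate vehicles. Their structures are not compared here. The log2 ratio with XY018 minus that with GSK805 was -0.35 for ACTB (counting interval -0.38 to -0.31), -0.76 for ACTG1 (-0.81 to -0.72) and -0.17 for TPM1 (-0.33 to -0.01), each a larger decrease with XY018. For VCL it was 0.09 (-0.02 to 0.20), for SRF 0.13 (-0.08 to 0.33), for TPM4 -0.06 (-0.14 to 0.02) and for ZYX 0.04 (-0.10 to 0.18), with intervals that include 0 and bound the difference between these libraries at 0.33 or less in either direction, with the variation between cultures left out. For MYL9 it was 1.18, with a wide interval that includes 0 (-0.82 to 3.18). For TAGLN the difference was 1.30 (0.44 to 2.17), since it was above vehicle with XY018 and below vehicle with GSK805. Its vehicle levels were 1.96 FPKM in the XY018 and ATV experiment and 6.84 in the GSK805 experiment. Against the former vehicle the ratio of TAGLN with GSK805 was above 0, so its direction depends on the vehicle used. The antagonists have 1 library each, and the differences between them were not tested.

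**Figure D4:**
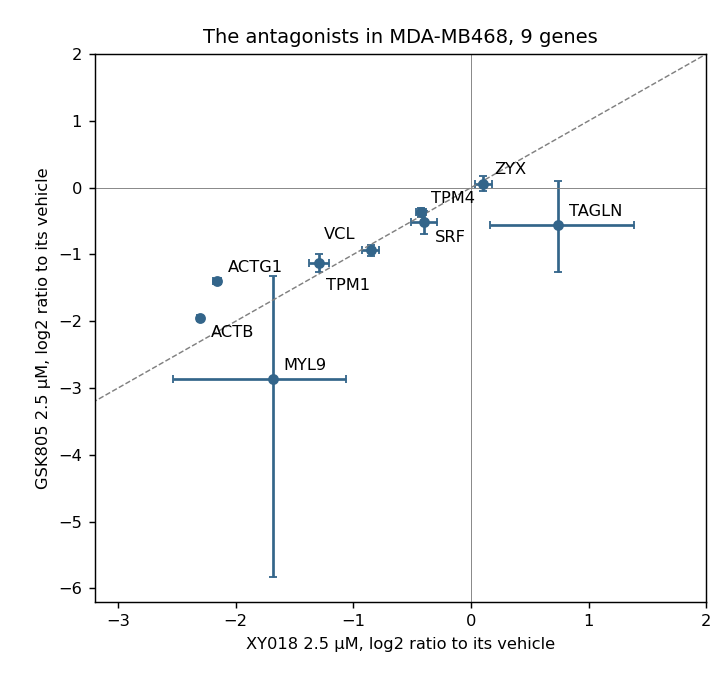
Log2 ratio to its own vehicle with XY018 (horizontal) and GSK805 (vertical), both at 2.5 μM in MDA-MB468, for the 9 genes with a ratio in both, with 95% counting intervals as bars and a dashed line of equal ratios. ACTB and ACTG1 lie above the line (a larger decrease with XY018), VCL, SRF, TPM4 and ZYX lie near it, and TAGLN lies to the right of 0 and below it.

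Between the lines, the log2 ratio with XY018 at 2.5 μM in MDA-MB468 minus that in HCC70 was -2.08 for ACTB (counting interval -2.10 to -2.05), -2.01 for ACTG1, -1.11 for TPM1, -1.001 for FLNA, -0.93 for VCL, -0.48 for TPM4, -0.29 for SRF (-0.50 to -0.08) and -0.16 for ZYX (-0.26 to -0.07). For MYL9 it was -2.58 (-4.26 to -0.89), and for TAGLN it was 0.90 with an interval that includes 0 (-0.01 to 1.81). The MYL9 ratio in HCC70 rests on an estimated 5 fragments with vehicle and 10 with XY018. MYL9 reached 1 FPKM there only in the treated library, so no conclusion is drawn from its difference. The lines also differed in their vehicle levels, which come from separately normalized tables. ACTG1 stood at 659 FPKM in HCC70 and 1713 in MDA-MB468, FLNA at 178 and 664, and TPM1 at 58.0 and 226, whereas ZYX stood at 152 and 71.6.

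For the related genes that follow, the counts past 1.5-fold are to be read beside the shares over all genes in MDA-MB468, 14.5% lower and 14.1% higher with XY018 at 2.5 μM, 12.2% and 13.1% with both compounds, and 16.6% and 17.6% with GSK805, and in HCC70, 3.26% and 2.62% with XY018 at 2.5 μM and 2.93% and 4.38% with both compounds. Of 8 listed cofactors of SRF, 7 could be compared. In MDA-MB468 1 was lower and 0 higher with XY018 at 2.5 μM, a share near that of all genes, 2 were lower and 0 higher with both compounds, and 0 passed 1.5-fold with GSK805, and in HCC70 0 passed it in any treatment. The median log2 ratio in MDA-MB468 was -0.09 with XY018 at 2.5 μM, -0.03 with both compounds and -0.18 with GSK805. The cofactor lower both with XY018 at 2.5 μM and with both compounds is FHL2, a LIM-domain protein that binds SRF, which stood at 73.8 FPKM with vehicle, 48.1 and 35.4 with XY018 at 1.25 and 2.5 μM and 34.1 with both compounds, where the other cofactor past 1.5-fold was ELK3, a TCF named here after its values were seen, with a log2 ratio of -0.63. In HCC70 FHL2 went from 25.8 to 34.2 FPKM with XY018 at 2.5 μM. MKL1, the actin-sensing cofactor, measured 21.3 FPKM with vehicle and 19.99 with XY018 at 2.5 μM in MDA-MB468, and 26.6 and 18.8 FPKM with vehicle and GSK805 (log2 ratio -0.50). MKL2, its relative, measured 6.27 and 7.23 FPKM and ELK1, another TCF, 18.2 and 24.7 FPKM with vehicle and XY018 at 2.5 μM.

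A list of 30 other known targets of the MRTF branch was taken for comparison. Of 24 compared, 9 were lower and 1 higher with XY018 at 2.5 μM in MDA-MB468 (median log2 ratio -0.50), 7 lower and 0 higher with both compounds (-0.39), and 6 lower and 0 higher with GSK805 (-0.43). In HCC70 0 of 23 passed 1.5-fold with XY018 at 2.5 μM (median 0.00), and 2 of 22 were lower with both compounds (-0.22). With ATV alone 1 of 23 was lower and 0 higher in MDA-MB468 (all genes, 0.803% and 1.37%). In HCC70 it was 1 of 22 lower and 0 higher (all genes, 1.32% and 2.22%). CYR61, a secreted matricellular protein, measured 51.4 FPKM with vehicle in the MDA-MB468 XY018 and ATV experiment, 20.02 and 12.98 with XY018 at 1.25 and 2.5 μM, 35.8 with ATV and 10.3 with both compounds, and went from 23.2 to 9.36 with GSK805. In HCC70 it measured 19.8 FPKM with vehicle, 19.9 and 17.8 with XY018 at 1.25 and 2.5 μM, 12.9 with ATV and 6.99 with both compounds, so that here the libraries with ATV were the low ones. ACTN1, an α-actinin that bundles filaments, went from 146 to 88.4 FPKM, and CNN3, a calponin, from 138 to 84.2 FPKM with XY018 at 2.5 μM in MDA-MB468. PDLIM7, a LIM-domain adaptor of stress fibres, was at 48.0 and 43.2 FPKM in the same libraries and went from 41.7 to 26.0 FPKM with GSK805, past 1.5-fold (log2 ratio -0.68). The lowest ratios of the list, chosen after their values were seen, were those of CTGF and THBS1, secreted proteins of the matrix. CTGF went from 59.4 FPKM with vehicle to 1.06 and THBS1 from 24.1 to 2.32 with XY018 at 2.5 μM in MDA-MB468. With ATV alone there CTGF measured 35.8 FPKM and THBS1 17.1. In HCC70 CTGF was at 0.14 FPKM or less in every library.

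With the antagonists in MDA-MB468 the early growth response genes of the TCF branch were called in both directions, and in HCC70 none was called lower. Of 9 compared, 2 were lower and 2 higher with XY018 at 2.5 μM in MDA-MB468 (median log2 ratio -0.01), 1 lower and 2 higher with both compounds (0.06), and 1 lower and 2 higher with GSK805 (0.32), and in HCC70 0 were lower and 3 higher with XY018 at 2.5 μM (0.29) and 0 lower and 4 higher with both compounds (0.38). EGR1, a zinc-finger factor induced by ERK, measured 12.5 FPKM with vehicle and 5.17 with XY018 at 2.5 μM in MDA-MB468, 11.3 and 27.0 with vehicle and GSK805, and 3.24 and 8.61 with vehicle and XY018 at 2.5 μM in HCC70. With ATV alone EGR1 measured 6.75 FPKM in HCC70 and 12.5 in MDA-MB468. JUNB, a subunit of the AP-1 factor, went from 84.9 to 116 FPKM, MCL1, an antiapoptotic protein, from 63.9 to 54.2, and IER3, an early response gene, from 417 to 264 FPKM with XY018 at 2.5 μM in MDA-MB468. With GSK805 MCL1 went the other way, from 133 to 161 FPKM (log2 ratio 0.27), whereas JUNB went from 99.1 to 124 and IER3 from 68.1 to 42.0.

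The genes of actin turnover (cofilins, profilins, thymosins, the Arp2/3 complex and others) were compared in full, 28 of 28. With XY018 at 2.5 μM in MDA-MB468 7 were lower and 1 higher (median log2 ratio -0.34), with both compounds there 4 lower and 1 higher (-0.22), with GSK805 7 lower and 1 higher (-0.38), and with both compounds in HCC70 1 lower and 0 higher (-0.11). CFL1, the filament-severing cofilin, went from 1027 to 665 FPKM, PFN1, the profilin that feeds monomers to growing filaments, from 619 to 463, and TMSB10, a thymosin that binds actin monomers, from 2000 to 1185 with XY018 at 2.5 μM in MDA-MB468. With GSK805 the log2 ratio was -0.90 for CFL1 and -0.76 for PFN1. FSCN1 (fascin, which bundles filaments in protrusions) went the other way in MDA-MB468. It measured 2.04 FPKM with vehicle, 3.14 and 3.92 with XY018 at 1.25 and 2.5 μM, and 6.54 with both compounds. With ATV alone it measured 3.28 FPKM, also past 1.5-fold (log2 ratio 0.66). It went from 3.70 to 12.97 with GSK805, although in HCC70, where it stood at 192 FPKM with vehicle, it measured 168 with XY018 at 2.5 μM.

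Microtubule genes were examined beside those of actin. Of 11 tubulins, the subunits of microtubules, 8 were lower and 1 higher with XY018 at 2.5 μM (median log2 ratio -0.83), 5 lower and 2 higher with both compounds (-0.49) and 8 lower and 0 higher with GSK805 (-0.83) in MDA-MB468, against 0 of 10 in either direction with XY018 at 2.5 μM in HCC70. With both compounds in HCC70 1 of 10 was lower and 0 higher (-0.06). With ATV alone in MDA-MB468 0 of 11 were lower and 2 higher (0.04), where 0.803% and 1.37% of all genes were. TUBA1B went from 1052 to 348 FPKM and TUBB4B from 254 to 108 with XY018 at 2.5 μM in MDA-MB468. TUBB2A went from 10.2 to 5.97 FPKM, and TUBA4A was higher, from 3.54 to 15.8 FPKM. Of 14 genes often used as references, 3 were lower and 0 higher with XY018 at 2.5 μM in MDA-MB468 (median -0.23), 3 lower and 0 higher with both compounds (-0.10) and 2 lower and 0 higher with GSK805 (-0.31). In HCC70 0 of 14 passed 1.5-fold with XY018 at 2.5 μM (-0.06), and 1 was lower and 0 higher with both compounds (-0.20). GAPDH, a glycolytic enzyme, measured 2533 and 2176 FPKM with vehicle and XY018 at 2.5 μM in MDA-MB468, LDHA (lactate dehydrogenase) 239 and 103, PGK1, another glycolytic enzyme, 174 and 116, PPIA (cyclophilin A) 706 and 358, and HPRT1, an enzyme of purine salvage, 25.5 and 15. ACTB therefore moved more than GAPDH in these libraries, by a log2 ratio of -2.31 against -0.22.

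**Figure D5:**
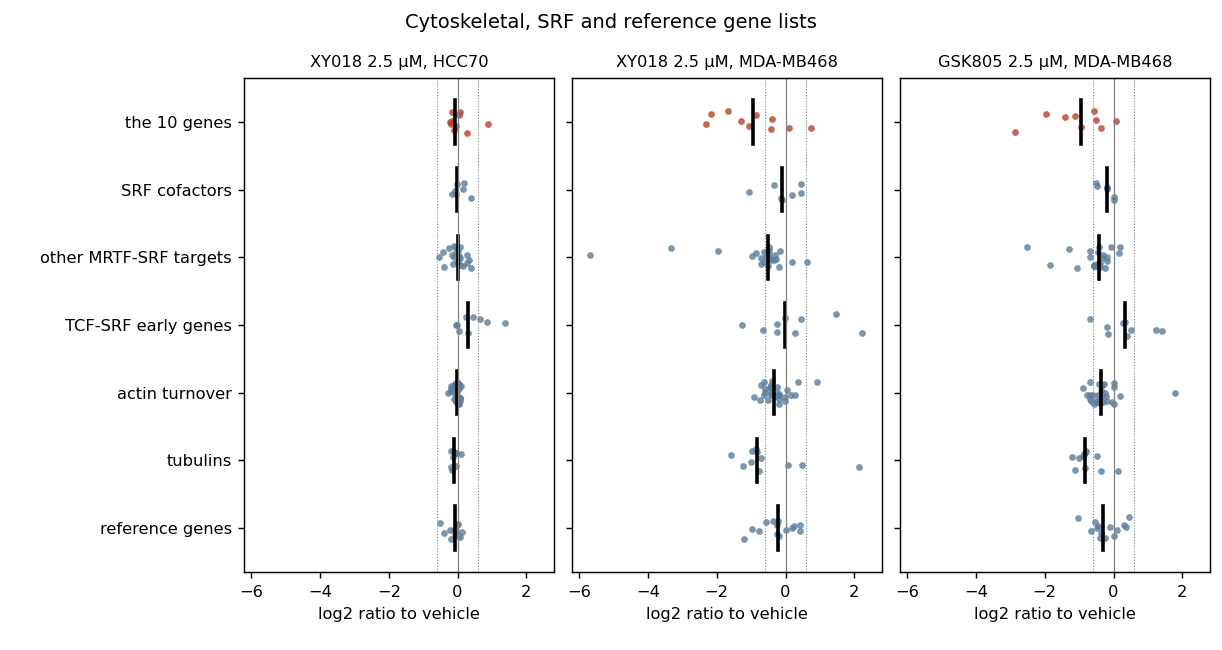
Log2 ratio to vehicle of each gene (points) and the median of each list (black bar) for the 10 genes (red) and for 6 related lists (blue), with XY018 at 2.5 μM in HCC70 (left), XY018 at 2.5 μM in MDA-MB468 (middle) and GSK805 at 2.5 μM in MDA-MB468 (right). Dotted lines mark 1.5-fold. In MDA-MB468 the medians of the 10 genes and of the tubulins lie furthest to the left, at -0.95 and -0.83 with XY018, and in HCC70 the medians lie near 0 except for the TCF-SRF early genes at 0.29.

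The genes whose levels ran most like those of ACTB were sought among 6595 genes at 5 FPKM or above in every library, by Pearson's r of the log2 levels over the 12 libraries after centring within each table. The highest were PRDX2 (r = 0.995), ACTG1 (0.992), ARPC4 (0.992), TMEM185B (0.991) and HMGB3 (0.991). The values are descriptive, since libraries of a table share cells, vehicle and normalization, and r does not measure the size of the changes. PRDX2 went from 310 to 170 FPKM, ARPC4 from 61.0 to 43.0 and HMGB3 from 53.2 to 21.2 with XY018 at 2.5 μM in MDA-MB468. Of the genes described here, TPM1 followed at rank 17 (r = 0.986), VCL at rank 114 (0.963), SRF at rank 407 (0.921) and TPM4 at rank 550 (0.903), while ZYX ran against ACTB (-0.572, rank 4828).

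Markers of the labelled cell type were present. All 7 epithelial markers were at 1 FPKM or above in every library except that of XY018 at 2.5 μM in MDA-MB468, where 6 were. Their summed level was lower in treated libraries, at 1950 FPKM with vehicle and 1215 with XY018 at 2.5 μM in MDA-MB468, 2295 and 1343 with vehicle and GSK805, and 1843 and 1139 with vehicle and both compounds in HCC70, with KRT5 the most abundant in HCC70 and KRT8 or KRT18 in MDA-MB468. Single markers did not all follow the sum. With GSK805 6 of 7 were below vehicle and CDH1 was above it, at 43.6 and 58.0 FPKM. With ATV alone in MDA-MB468 4 of 7 were below and 3 above. Of the markers low in TNBC, PGR was listed at 0 in every MDA-MB468 library, ESR1 was under 1 FPKM except in the GSK805 table, where it was at 1.77 and 5.67, and ERBB2 lay between 25.3 and 57.7 FPKM. ERBB2 was past 1.5-fold higher with GSK805, from 35.2 to 57.7 FPKM (log2 ratio 0.71). Its log2 ratios with XY018 at 1.25 and 2.5 μM in MDA-MB468 were 0.46 and 0.45, short of the call. Of 8 fibroblast markers at most 3 reached 1 FPKM, with COL1A1 the most abundant. COL1A1 was past 1.5-fold higher in all 4 antagonist libraries of MDA-MB468, at 4.96 FPKM with vehicle, 8.43 and 8.21 with XY018 at 1.25 and 2.5 μM and 8.49 with both compounds, and at 10.4 and 17.2 with vehicle and GSK805, while in HCC70 it lay between 3.84 and 5.73 FPKM. The summed endothelial markers reached 6.37 FPKM at most. SMTN was the most abundant of 6 smooth muscle markers, at 11.9 to 20.6 FPKM. Of the leukocyte markers 2 or 3 reached 1 FPKM, CD14 and CD68 among them. CD14 measured 170 FPKM with vehicle and 317 and 419 with XY018 at 1.25 and 2.5 μM in HCC70, but 17.9, 8.94 and 7.33 FPKM in the same conditions of MDA-MB468, and 93.7 and 51.8 with vehicle and GSK805. CD68 measured 76.5 FPKM with vehicle and 90.0 with XY018 at 2.5 μM in HCC70, 4.42 and 16.4 in MDA-MB468, and 5.54 and 12.4 with vehicle and GSK805. KDR, an endothelial receptor, measured 2.22 FPKM with vehicle and 0.18 with XY018 at 2.5 μM in MDA-MB468, and 6.35 and 2.88 with vehicle and GSK805. CDH5, an endothelial cadherin, was higher in HCC70, at 0.25 FPKM with vehicle, 1.64 and 1.93 with XY018 at 1.25 and 2.5 μM and 2.28 with both compounds (log2 ratios 2.31, 2.54 and 2.77), and was at 0.03 FPKM or less in every MDA-MB468 library. The part of these markers in the changes of the actin genes was not tested.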

How the data were processed

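RNA-seq of 12 libraries, 1 per condition of an experiment, was analysed. Per the labels the authors used BWA, Bowtie and Cufflinks with GRCh37 (hg19), and versions are not given in the sources used here. The deposited values are FPKM, computed by the authors in 3 separately normalized tables. The headers name no unit, and the unit was taken from the tool and the values. For a symbol with several entries the one with the highest mean was kept. Log2 ratios used 0.1 added to each FPKM, a minimum of 1 FPKM in at least one library compared and a 1.5-fold call, the threshold of the study. No test was run. Each treated condition of a line has 1 library, and the 2 vehicle libraries of MDA-MB468 are in separately normalized tables.

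Low FPKM values are spaced by whole fragments, which gave an estimate of the depth, with 1 length offset per table (20 nt, 20 nt and 220 nt). Fragments per gene follow from it and the shortest coding transcript of GENCODE on GRCh37. The 95% intervals of single ratios (Clopper-Pearson) apply to ratios without the added 0.1. Those of differences of log2 ratios, between antagonists or lines, are normal approximations centred on ratios with 0.1 added. They are rough where fragments are few, as for MYL9. Both steps were tested on simulated data, and the outcome is not given here. Promoters are those of RefSeq on GRCh38.p14, and no coordinates were converted.

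The genes, the related lists and the rules were chosen with earlier results of these data known. Of each list, up to 4 genes at 5 FPKM or above in every table with the largest ratio were named, beside MKL1, MKL2 and GAPDH. Some items of the lists and of this rule are not reported here. Alternatives were pseudocounts of 1 and 0.01, other filters, libraries rescaled to a median of 0, a 2-fold call, ACTB and ACTG1 summed, all entries of a symbol summed, and GSK805 against the other MDA-MB468 vehicle. The work was done in Python 3.11.15 with pandas 2.3.3, numpy 2.4.6, matplotlib 3.10.9 and scipy 1.17.1.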

Additional observations from a re-analysis of the deposited data

Results flagged for a closer look

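Of the related lists, the marker lists and the 10 genes described here, 110 genes could be compared in every library with XY018. For 5 of them the log2 ratios with XY018 had opposite signs in HCC70 and MDA-MB468 in all 3 treatments that contained it, each with a counting interval that excludes 0. The share of all genes that meet this rule is not given here, so the count is a description and is not read as unusual. The difference between the lines was not tested, since each condition of an experiment has 1 library. EGR1 was higher in HCC70, by 0.75 and 1.38 with XY018 at 1.25 and 2.5 μM and 2.21 with both compounds, and lower in MDA-MB468, at -0.62, -1.26 and -1.32. With ATV alone EGR1 was also higher in HCC70, by 1.04. With GSK805 in MDA-MB468 it went up, from 11.3 to 27.0 FPKM. FHL2 was higher in HCC70, by 0.31, 0.40 and 0.39, and lower in MDA-MB468, at -0.62, -1.06 and -1.11. FSCN1 went the other way, at -0.29, -0.19 and -0.075 in HCC70 and 0.60, 0.91 and 1.63 in MDA-MB468. With ATV alone FSCN1 was at 0.21 in HCC70 and 0.66 in MDA-MB468. EEF1A1, a translation factor on the reference list, was at -0.097, -0.074 and -0.074 in HCC70 and 0.31, 0.41 and 0.33 in MDA-MB468, all within 1.5-fold. CD14, a leukocyte marker, was higher in HCC70, by 0.90, 1.30 and 1.16, and lower in MDA-MB468, at -0.99, -1.27 and -1.52. None of the 10 actin and SRF genes met this rule.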

How the results depend on the processing

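Of the counts of genes lower, 53 of 55 recomputed values stayed within 1.5 times the reported one, and of the medians 41 of 46 stayed within the median bounds of the counting intervals. Shares of all genes past 1.5-fold moved by over 1.5 times in 20 of 54 recomputed values, all of them under other filters on low values. The share over symbols listed in all tables was added after the data had been seen. With a 2-fold call, XY018 at 1.25 μM left 3 lower in MDA-MB468, both compounds left 0 lower in HCC70, and the genes called higher fell to 0 with XY018 at 2.5 μM in HCC70 and in MDA-MB468 and with both compounds in MDA-MB468. With a pseudocount of 1 the genes called higher were 0 in these 3 comparisons and 0 with both compounds in HCC70. They were 2 with both compounds in HCC70 and 0 with both in MDA-MB468 after rescaling, since ZYX and TAGLN lie at the threshold. With ACTB and ACTG1 summed the median became -0.61, -0.85 and -0.69 with XY018 at 1.25 and 2.5 μM and with both compounds in MDA-MB468 and -0.75 with GSK805. Against the vehicle of the XY018 and ATV experiment the median with GSK805 was -0.49 with 1 gene higher, TAGLN, whose log2 ratio went from -0.56 to 1.19, while ACTB was at -1.40 and ACTG1 at -0.37. The median of all genes shifted by 0.58 in that comparison across tables. Depth limits MYL9 and TAGLN most. The labels give no replicate numbers by which samples could be paired. A fit that takes the lines as replicates of a treatment was not run.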
